A study of Mus musculus with 23 samples.

Results

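The microvilli of the intestinal brush border are built from bundles of parallel actin filaments wrapped in plasma membrane. Bundling proteins hold the filaments together, motors and linkers tie the bundle to the membrane, and protocadherins at the tips join neighbouring microvilli into an even carpet. The brush border is best known from enterocytes, the absorptive cells of the villus, but crypt cells also carry microvilli. The genes described here encode such structural proteins: the bundling or tip proteins *Espn* (espin), *Vil1* (villin), *Pls1* (plastin 1) and *Eps8*, the membrane linker *Ezr* (ezrin) and motor *Myo1a*, and the tip adhesion proteins *Cdhr2*, *Cdhr5* and *Ush1c* (harmonin). These 9 genes, of 22350 genes in the RNA-seq tables, 22230 in the organoid Ribo-seq tables and 22314 in the mouse Ribo-seq tables, were chosen by name with the read counts of these same libraries in view. Their fold changes and adjusted p values therefore place each gene within the whole table and are not independent evidence about the group. In GRCm38 (GENCODE vM21) the bundling genes are *Espn* at chr4:152120331-152152371, *Vil1* at chr1:74409376-74435559, *Pls1* at chr9:95752642-95845311 and *Eps8* at chr6:137477245-137654876. *Ezr* is at chr17:6738041-6782784 and *Myo1a* at chr10:127705170-127720940. *Cdhr2* is at chr13:54701461-54736662, and *Cdhr5* (chr7:141269083-141276786) and *Ush1c* (chr7:46195350-46238503) share a chromosome.

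The series followed the loss of *Rptor*, which encodes the mTORC1 subunit Raptor, in C57BL/6 intestinal organoids and mice. RNA-seq covered WT organoids (genotype VillinCre.ERT2.RPL22.HA; 2 organoid lines with 2 libraries each), Rptor fl/fl organoids (VillinCre.ERT2.Rptor.fl/fl; 2 lines with 2 libraries each) and stem cell enriched (SCe) organoids (VillinCre.ERT2.RPL22.HA; 3 samples), the last grown in ENR medium (EGF, Noggin and R-spondin) with 10 µM CHIR 99021, a GSK3 inhibitor, and 1.5 mM valproic acid. Ribo-seq, which sequences ribosome-protected fragments, covered 3 Rptor fl/fl organoid samples (VillinCre.ERT2.Rptor.fl/fl.RPL22.HA), 3 SCe organoid samples, and the small intestine of 3 WT mice (Lgr5Cre.ERT2.RPL22.HA) and 3 Rptor fl/fl mice (Lgr5Cre.ERT2.Rptor.fl/fl.RPL22.HA). In the Ribo-seq samples, ribosomes bearing HA-tagged RPL22 were pulled down before the footprints were made. Among the RNA-seq labels, RPL22.HA appears for WT and SCe but is missing for Rptor fl/fl. Every mRNA difference that involves the Rptor fl/fl lines therefore joins the loss of *Rptor* with the absence of this allele. The part of the allele in those differences was not tested. Cre in the organoids is driven by the promoter of *Vil1*, itself among the 9 genes, and in the mice by *Lgr5*, a marker of crypt stem cells. The labels call the Rptor fl/fl samples untreated, whereas the study's methods describe tamoxifen to activate Cre in both genotypes. The study's methods describe young adult mice of both sexes, and the labels give no age. The labels number the organoid lines and mice, and the 2 libraries of a line were added together, so that n is 2 lines or 3 samples per group.

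Libraries held 23802944 to 67598878 assigned reads in RNA-seq, 1106178 to 8257457 in organoid Ribo-seq and 772077 to 8238388 in mouse Ribo-seq. Levels are given as CPM, each library scaled to the same total, after TMM normalization within each assay. *Rptor* mRNA was 51.5 and 47.9 CPM in WT, 14.8 and 15.5 CPM in Rptor fl/fl and 53.7 to 60.8 CPM in SCe organoids. *Rptor* footprints were 15.9 to 18.7 CPM in the organoid libraries labelled Rptor fl/fl and 15.2, 41.8 and 21.0 CPM in the SCe libraries, a difference that did not pass the test (edgeR adjusted p = 0.318). In the mice they were 32.5 to 36.7 CPM in those labelled Rptor fl/fl and 39.5 to 44.5 CPM in WT (edgeR adjusted p = 0.150). The SCe sample numbered 1 stood apart in both assays: the summed level of 10 enterocyte markers was 504 CPM in its RNA-seq library against 7018 and 8149 CPM in the other two, and 1383 CPM in its Ribo-seq library against 4214 and 4489 CPM. The mouse pulldown, aimed at Lgr5 cells, held 60074 to 69950 CPM of enterocyte marker footprints and 455 to 742 CPM of 7 stem cell markers, and *Lgr5* itself was at 6.29 to 45.6 CPM. In these bulk samples fewer cells of a type and less RNA per cell cannot be told apart.

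Sequences before 4 of the starts are shown first, with 2 of the 3 *Espn* windows because its mRNA came from start sites lying far apart. The remaining *Espn* window, chr4:152136326-152136575, lies before further inner starts and is not printed. RefSeq (GRCm38.p6) gave windows for 8 of the 9 genes, with 3 for *Espn* and 10 in all, and *Eps8* had no entry. Each run below is the 250 bases before the start, 5′ to 3′ on the gene's strand, and capitals mark letters of a motif looked for on both strands. The *Vil1* window belongs to the gene whose promoter also drives Cre in the organoids, and the *Ezr* window to the membrane linker that rose in Rptor fl/fl organoids. *Myo1a* is not printed because 86 bases of its window lie in an annotated exon.
Espn, upstream start, chr4:152152390-152152639, minus strand: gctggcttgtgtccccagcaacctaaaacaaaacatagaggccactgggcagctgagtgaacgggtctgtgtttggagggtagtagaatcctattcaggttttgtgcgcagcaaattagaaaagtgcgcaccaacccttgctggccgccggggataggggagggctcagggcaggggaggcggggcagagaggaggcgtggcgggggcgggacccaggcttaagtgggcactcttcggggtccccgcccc
Espn, start of Espn-202, chr4:152128926-152129175, minus strand: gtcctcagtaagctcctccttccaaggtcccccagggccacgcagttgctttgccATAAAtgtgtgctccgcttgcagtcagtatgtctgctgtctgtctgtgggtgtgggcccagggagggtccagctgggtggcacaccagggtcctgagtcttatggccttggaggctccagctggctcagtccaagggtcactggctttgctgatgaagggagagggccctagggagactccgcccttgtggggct
Vil1, chr1:74409134-74409383, plus strand: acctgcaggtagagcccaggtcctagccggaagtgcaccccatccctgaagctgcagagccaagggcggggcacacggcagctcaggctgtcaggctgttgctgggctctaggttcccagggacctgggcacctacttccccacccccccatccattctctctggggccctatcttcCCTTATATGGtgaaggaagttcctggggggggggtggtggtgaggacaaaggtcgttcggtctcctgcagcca
Ezr, chr17:6782781-6783030, minus strand: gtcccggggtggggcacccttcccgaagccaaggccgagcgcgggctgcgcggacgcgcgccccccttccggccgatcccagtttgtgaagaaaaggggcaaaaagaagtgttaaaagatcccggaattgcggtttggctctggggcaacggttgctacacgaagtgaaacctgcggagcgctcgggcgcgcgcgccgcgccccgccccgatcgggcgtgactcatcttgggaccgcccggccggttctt
The window before Espn-202 overlaps no annotated exon of *Espn* and lies within the longer transcripts, so it is intronic to them, whereas the *Vil1* and *Ezr* windows reach 8 and 4 bases into annotated exons. The CDX core TTTAT occurred in 37.3% of 32851 such windows genome-wide and in 2 of the 10 windows of these genes, once before Espn-202 (capitals, ATAAA on the printed strand) and once before *Cdhr5*. The CArG box, bound by serum response factor, occurred in 1.47% of windows and in 1 of the 10, that of *Vil1* (capitals), 73 to 64 bases before the start. The HNF4 motif CAAAGTCC (1.2% of windows) and the GATA motif GATAAG (6.55%) were in none of the 10. A match or its absence describes only these letters.

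Per length of transcript, *Vil1* mRNA was the most abundant of the 9 in WT organoids at 265 ± 3.76 TPM (SD, n = 2), followed by *Ezr* at 158 ± 11.8 TPM and *Myo1a* at 145 ± 1.29 TPM, and *Espn* was the least abundant at 22.0 ± 2.27 TPM. The neighbours *Cdhr5* (116 ± 2.44 TPM) and *Pls1* (112.5 ± 2.29 TPM) lay within their spread of each other. *Vil1* stayed first and *Ezr* second in the mRNA of Rptor fl/fl and SCe organoids. *Espn* was last in Rptor fl/fl organoids at 7.64 ± 0.996 TPM (n = 2), and in SCe organoids it was 32.4 ± 10.1 TPM (n = 3), indistinguishable from *Eps8* at 31.8 ± 5.97 TPM. *Myo1a* went from the third place in WT organoids to the sixth in SCe organoids, where it was 69.0 ± 30.2 TPM and within the spread of *Cdhr5* (75.5 ± 16.3 TPM) and *Cdhr2* (77.7 ± 4.802 TPM).

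**Figure D1:**
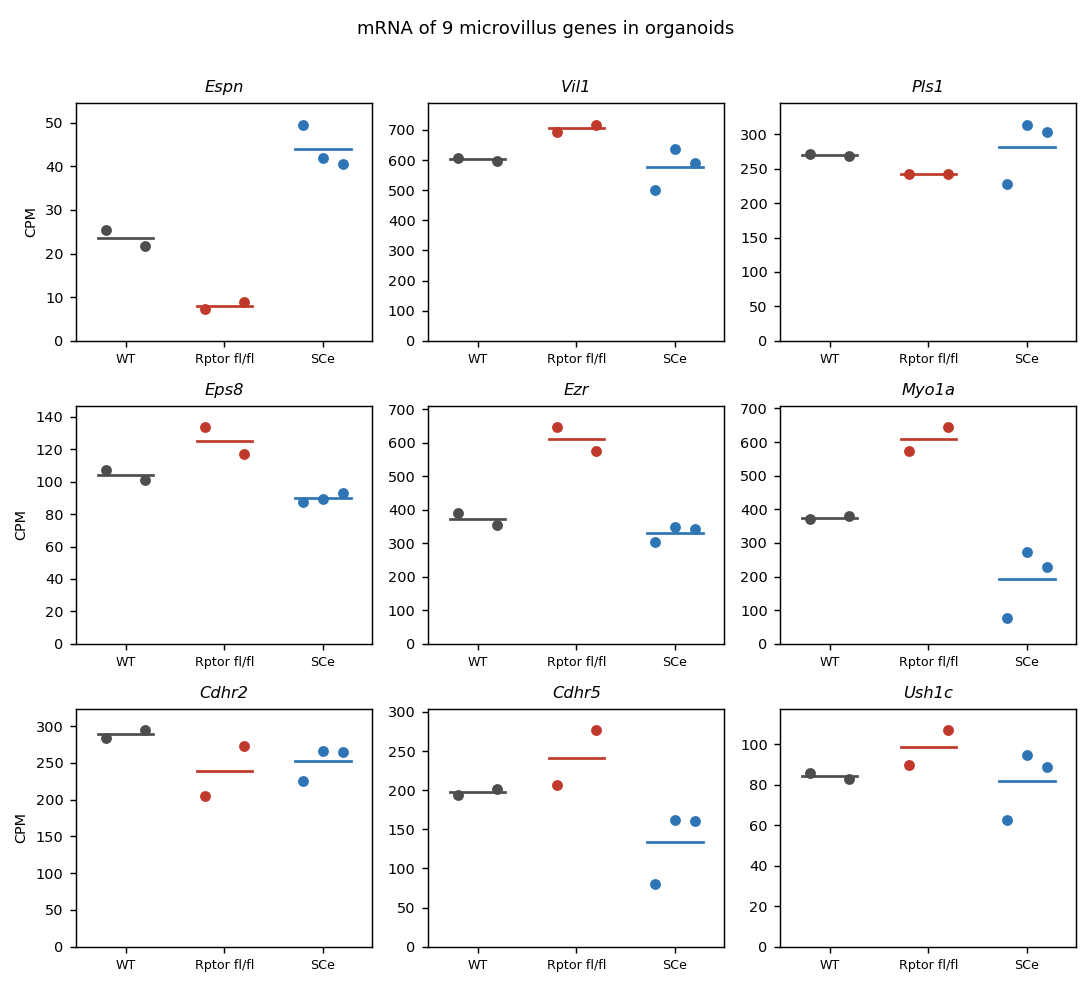
mRNA of the 9 genes in CPM (linear axes from 0) by group, with a point per organoid line or sample and a line at the group mean. *Espn* was at 7.2 to 8.89 CPM in Rptor fl/fl and 40.5 to 49.6 CPM in SCe organoids, while *Ezr* and *Myo1a* were highest in Rptor fl/fl organoids.

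Among the genes for bundling proteins, *Espn* fell in Rptor fl/fl organoids and rose in SCe organoids. Espin cross-links actin filaments and exists as long and short isoforms from different start sites. *Espn* mRNA was 25.5 and 21.6 CPM in the 2 WT lines, 7.2 and 8.89 CPM in both lines of Rptor fl/fl, and 49.6, 42.0 and 40.5 CPM in the 3 SCe samples. The 3 groups did not overlap, with Rptor fl/fl lowest and SCe highest. How many of all genes separate in this way was not counted, here or in any later comparison. With 2 lines or 3 samples per group, such separation alone carries little weight. *Espn* fell in Rptor fl/fl against WT organoids by 1.55 on the log2 scale (95% confidence interval −1.94 to −1.16, edgeR adjusted p = 0.0109) and rose in SCe against WT organoids by 0.92 (0.59 to 1.26, edgeR adjusted p = 0.00609). Between Rptor fl/fl and SCe organoids the log2 fold change was −2.45 (−2.85 to −2.05, edgeR adjusted p = 0.00108). The rise in SCe organoids had an edgeR adjusted p of 0.0555 without WT line 2.

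The reads of *Espn* were assigned to transcripts from distant starts. The transcripts from the upstream start (Espn-201, Espn-212, Espn-213 and Espn-220) hold the long forms, and Espn-202 is a short form from the inner start. Upstream-start transcripts were at 11.6 and 9.19 CPM in WT, 3.75 and 4.41 CPM in Rptor fl/fl and 29.5, 27.6 and 25.6 CPM in SCe organoids. Espn-202 was at 13.3 and 11.9 CPM in WT, 3.39 and 4.48 CPM in Rptor fl/fl, and 17.4, 13.5 and 13.6 CPM in SCe organoids. Both were lower in each Rptor fl/fl line than in any WT or SCe sample. With Espn-202 counted alone, the log2 fold change was −1.68 in Rptor fl/fl against WT organoids (edgeR adjusted p = 0.0114), whereas in SCe against WT organoids it was 0.25 and did not pass the test (edgeR adjusted p = 0.248). The upstream start carried 42.5 to 45.5% of *Espn* reads in WT and 59.4 to 65.8% in SCe organoids. This split rests on Salmon's division of reads among overlapping transcripts.

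**Figure D2:**
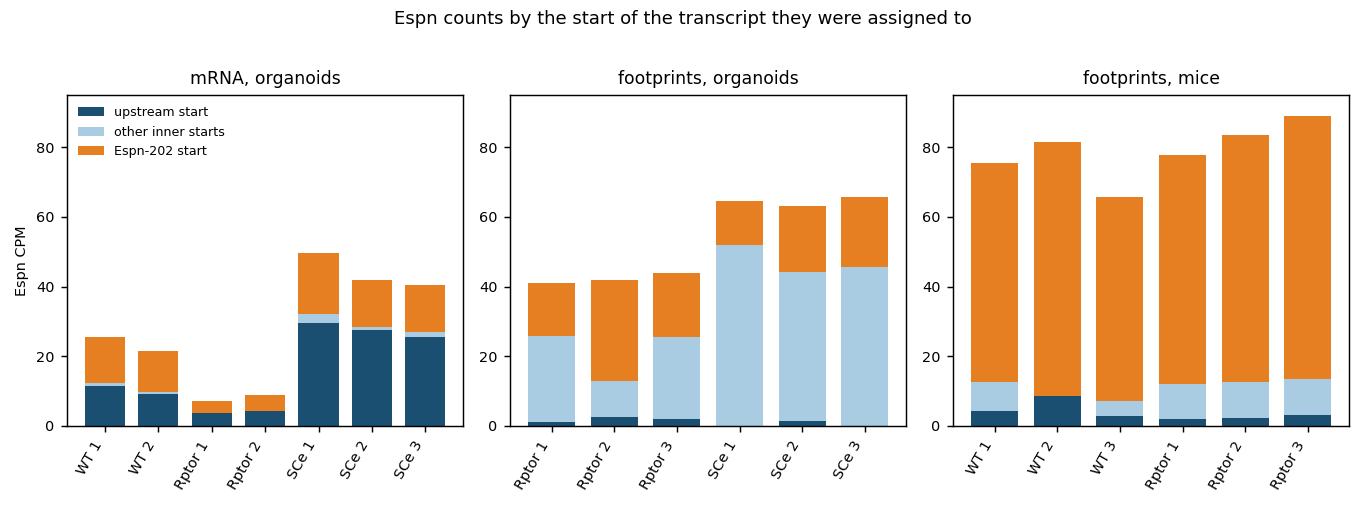
*Espn* CPM by sample, stacked by the start of the transcript to which Salmon assigned the reads (bars start at 0; Rptor is Rptor fl/fl). Upstream-start transcripts make up 42.5 to 65.8% of mRNA reads and at most 10.53% of footprints, and Espn-202 makes up 83.5 to 89.5% of footprints in mice.

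*Vil1*, which bundles actin and severs it at high calcium, did not pass the test in any RNA-seq comparison. Its mRNA was 608 and 596 CPM in WT, 693 and 718 CPM in Rptor fl/fl, and 500, 638 and 591 CPM in SCe organoids. Both Rptor fl/fl lines lay above every other sample, yet the log2 fold change of 0.23 against WT missed the threshold (edgeR adjusted p = 0.0840). *Pls1*, which spaces the filaments of the bundle, was 272 and 269 CPM in WT, 242.2 and 242.3 CPM in Rptor fl/fl, and 228, 314 and 304 CPM in SCe organoids. The Rptor fl/fl lines of *Pls1* lay below the WT lines and within the range of the SCe samples, and no comparison passed the threshold. *Eps8*, which caps and bundles filaments at microvillus tips, was 107 and 101 CPM in WT, 133 and 117 CPM in Rptor fl/fl, and 87.6, 89.2 and 92.8 CPM in SCe organoids. The 3 groups of *Eps8* did not overlap, and it rose in Rptor fl/fl against SCe organoids by 0.48 on the log2 scale (edgeR adjusted p = 0.00956), but its differences from WT missed the threshold in Rptor fl/fl (0.27, edgeR adjusted p = 0.0792) and in SCe organoids (−0.19, edgeR adjusted p = 0.0615). Without Rptor fl/fl line 1 its edgeR adjusted p against SCe organoids was 0.0665.

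*Ezr* and *Myo1a*, whose products tie the bundle to the membrane, rose in Rptor fl/fl against WT organoids. *Ezr*, whose product links actin to membrane proteins, was 389 and 354 CPM in WT, 645 and 575 CPM in Rptor fl/fl, and 304, 347 and 342 CPM in SCe organoids. Its Rptor fl/fl values lay above those of every other sample. *Ezr* rose by 0.72 on the log2 scale against WT (95% confidence interval 0.47 to 0.96, edgeR adjusted p = 0.0165) and by 0.88 against SCe organoids (0.62 to 1.15, edgeR adjusted p = 0.00334), while SCe and WT organoids differed by −0.15 (edgeR adjusted p = 0.274). *Myo1a*, the class I myosin that bridges the bundle and the membrane, was 370.3 and 380.1 CPM in WT, 573 and 643 CPM in Rptor fl/fl, and 77.8, 273 and 228 CPM in SCe organoids. Again the 3 groups did not overlap, and the SCe sample numbered 1 was far below the others. *Myo1a* rose against WT by 0.70 (0.47 to 0.92, edgeR adjusted p = 0.0150) and was 1.66 above SCe organoids with a wide interval (0.36 to 2.96, edgeR adjusted p = 0.0507). Without the SCe sample numbered 1 this last value was 1.28 (edgeR adjusted p = 0.000653). Leaving out WT line 1 or 2 took *Myo1a* against WT to edgeR adjusted p = 0.0595 and 0.0523, and leaving out WT line 2 took *Ezr* to 0.0644. With all RNA-seq groups in a single fit the *Myo1a* call against WT was lost (edgeR adjusted p = 0.440).

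The tip adhesion genes did not pass the test in any RNA-seq comparison. *Cdhr2* and *Cdhr5* encode the protocadherins that pair across neighbouring microvilli, and *Ush1c* encodes the scaffold beneath them. *Cdhr2* was 284 and 294 CPM in WT, 205 and 272 CPM in Rptor fl/fl, and 226, 266 and 265 CPM in SCe organoids. *Cdhr5* was 195 and 202.2 CPM in WT, 206 and 276 CPM in Rptor fl/fl, and 80.6, 163 and 160.4 CPM in SCe organoids. For *Cdhr2* the WT lines lay above all other samples, whose groups overlapped. For *Cdhr5* both Rptor fl/fl lines lay above both WT lines and these above the SCe samples, and the log2 fold changes were 0.85 for Rptor fl/fl against SCe (edgeR adjusted p = 0.0972) and −0.54 for SCe against WT organoids (edgeR adjusted p = 0.231). Without the SCe sample numbered 1 these were 0.58 and −0.28, with edgeR adjusted p = 0.0172 and 0.00490. *Ush1c* was 85.8 and 82.8 CPM in WT, 89.9 and 107 CPM in Rptor fl/fl, and 62.7, 94.7 and 88.5 CPM in SCe organoids. The Rptor fl/fl lines of *Ush1c* lay above the WT lines, and the SCe samples overlapped both groups.

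Counted together, 3 of the 9 genes passed the test in Rptor fl/fl against WT organoids, 2 higher and 1 lower, where 11.6% of 14131 genes tested were called higher and 11% lower. Leaving out WT line 2 gave a count of 1, and leaving out Rptor fl/fl line 2 gave 5. In SCe against WT organoids 1 gene was called, higher, where 22.4% of 14925 genes were called higher and 19.9% lower, and the count was 0 without WT line 2 and 5 without the SCe sample numbered 1. In Rptor fl/fl against SCe organoids 2 genes were called higher and 1 lower, where 21% of 15086 genes were called higher and 21.8% lower, and the count was 6 without the SCe sample numbered 1. The median log2 fold change of the 9 genes was 0.23, −0.15 and 0.29 in these comparisons, beside −0.01, 0.02 and −0.01 over all genes tested. The shares of all genes belong to the main fits and were not set beside the counts with a sample left out, here or below. All 9 genes passed the count filter in every comparison. The 3 comparisons share their sample groups, so their values are not independent of each other. Those with the Rptor fl/fl lines also differ in the RPL22.HA label, and those with the SCe samples in medium.

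Other genes of the microvillus, from lists covering further bundling proteins, linkers and motors, tip proteins and the terminal web, were read in the same fits. Of 32 tested in Rptor fl/fl against WT organoids, 11 were called higher and 3 lower, beside 11.6% and 11% of all genes tested. Of these, *Msn* (moesin, a relative of ezrin) was 0.151 and 0.0807 CPM in WT, from 8 and 4 counts, and 23.0 and 11.2 CPM in Rptor fl/fl organoids (log2 fold change 7.16, edgeR adjusted p = 0.00952). *Myh14*, a myosin of the terminal web, rose by 0.66 (edgeR adjusted p = 0.0150) and *Eps8l1* by 1.49 (edgeR adjusted p = 0.0205). In SCe against WT organoids 7 of 34 were called higher and 8 lower, beside 22.4% and 19.9% of all genes tested. Smallest in adjusted p was *Baiap2l2*, a membrane-bending protein, at −1.29 (edgeR adjusted p = 0.00114). Next were *Pls3* at 1.08 (edgeR adjusted p = 0.00193) and *Msn* at 5.92 (edgeR adjusted p = 0.00233). In Rptor fl/fl against SCe organoids 13 of 34 were called higher and 4 lower, beside 21% and 21.8% of all genes tested. Smallest in adjusted p there was *Baiap2l2* at 1.90 (edgeR adjusted p = 0.00132). *Myh14* at 1.45 (edgeR adjusted p = 0.00143) and *Eps8l2* at 0.75 (edgeR adjusted p = 0.00207) followed.

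Markers of cell types differed between the organoid groups as well. Summed enterocyte markers were 8059 and 8715 CPM in WT and 6415 and 9955 CPM in Rptor fl/fl organoids. Of 10 enterocyte markers, 2 were called lower in Rptor fl/fl against WT organoids, *Anpep* (aminopeptidase N) at −2.14 (edgeR adjusted p = 0.0133) and *Apoa1* (apolipoprotein A1) at −0.60 (edgeR adjusted p = 0.0412), and none was called higher. In SCe against WT organoids 1 was called, *Alpi* (intestinal alkaline phosphatase), at −2.51 (edgeR adjusted p = 0.0243), and in Rptor fl/fl against SCe organoids *Alpi* was higher at 1.98 (edgeR adjusted p = 0.0461) and *Anpep* lower at −2.38 (edgeR adjusted p = 0.00403). Summed goblet markers were 1567 and 1669 CPM in WT, 2836 and 3900 CPM in Rptor fl/fl, and 244 to 428 CPM in SCe organoids. Paneth markers were 4128 and 4914 CPM in WT, 743 and 1566 CPM in Rptor fl/fl, and 373 to 3169 CPM in SCe organoids, and 4 of 5 were called lower in Rptor fl/fl against WT. Stem cell markers were 4847 and 6598 CPM in WT, 1952.5 and 3300.2 CPM in Rptor fl/fl, and 2395 to 3115 CPM in SCe organoids, with 5 of 7 called lower in Rptor fl/fl against WT. Much of the WT sum was *Olfm4*, with means of 3648 CPM in WT, 1101 CPM in Rptor fl/fl and 76.7 CPM in SCe organoids. Means of *Lgr5* were 206, 59.1 and 259 CPM in the same order. In SCe against WT, 4 of the 7 log2 fold changes were positive and 3 negative, with 2 called lower and 0 higher. Of 6 enteroendocrine markers 3 were called lower in Rptor fl/fl against WT, from 181 and 268 CPM to 87.8 and 204 CPM in sum. Stromal markers summed to 69.8 to 115 CPM in SCe organoids and to at most 3.43 CPM in the others, over a list of 6 genes that includes *Vim* and collagens. The part of these cells in the microvillus values was not tested.

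**Figure D3:**
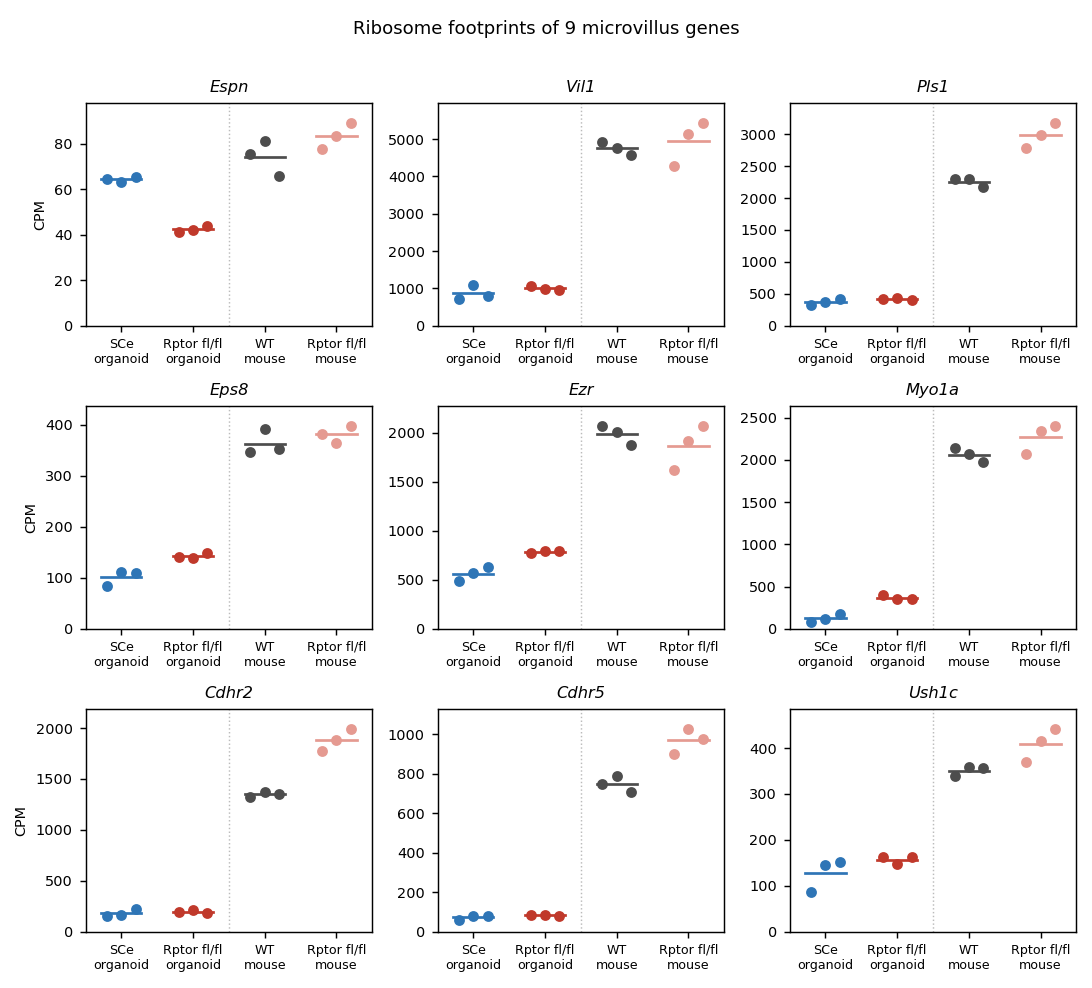
Footprints of the 9 genes in CPM (linear axes from 0), with a point per sample or mouse and a line at the group mean. The dotted line divides organoids from mice, which were counted on different reference sequences and normalized separately. *Espn* was at 41.1 to 43.9 CPM in Rptor fl/fl and 63.2 to 65.5 CPM in SCe organoids.

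Footprints in organoids were compared between the samples labelled Rptor fl/fl and SCe, since no WT organoid footprints were analysed here. The SCe medium also held CHIR 99021 and valproic acid, so genotype and medium cannot be told apart in these values. *Myo1a* footprints were 395, 355 and 351 CPM in Rptor fl/fl and 75.8, 113 and 176 CPM in SCe organoids. The groups lay far apart, and *Myo1a* rose by 1.58 on the log2 scale (95% confidence interval 0.94 to 2.23, edgeR adjusted p = 0.00747), a call that stood in each of the 13 alternative fits. *Espn* footprints were 41.1, 41.8 and 43.9 CPM in Rptor fl/fl and 64.4, 63.2 and 65.5 CPM in SCe organoids, tight and apart. *Espn* fell by 0.61 (−0.96 to −0.26, edgeR adjusted p = 0.0291), and the call was lost without any of the 3 Rptor fl/fl samples (edgeR adjusted p 0.132 to 0.140). These 2 genes were the calls, 1 higher and 1 lower, where 6.63% of 10817 genes tested were called higher and 9.84% lower. The count was 1 without any Rptor fl/fl sample and 4 without the SCe sample numbered 1.

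The other genes had positive log2 fold changes, between 0.12 and 0.50, that did not pass the test. *Ezr* was 772, 790.5 and 787.5 CPM in Rptor fl/fl and 481, 566 and 630.0 CPM in SCe organoids, and the groups did not overlap (log2 fold change 0.49, edgeR adjusted p = 0.0863). *Eps8* was 141, 138 and 149 CPM in Rptor fl/fl and 82.8, 111 and 108 CPM in SCe organoids, also without overlap (0.50, edgeR adjusted p = 0.0777). Without the SCe sample numbered 1 both passed, at edgeR adjusted p = 0.0352 and 0.0494. *Vil1* was 964 to 1068 CPM in Rptor fl/fl and 717 to 1079 CPM in SCe organoids, and *Pls1* was 401 to 427 CPM and 330 to 414 CPM. *Cdhr2* (187 to 216 against 158 to 220.2 CPM), *Cdhr5* (79.0 to 86.9 against 59.02 to 81.1 CPM) and *Ush1c* (147 to 163 against 87.2 to 151 CPM) overlapped too. The median of the 9 log2 fold changes was 0.22, beside −0.02 over all genes, of which 6.63% were called higher and 9.84% lower. Of 30 other microvillus genes tested, 7 were called higher and 3 lower, led by *Eps8l3* at 1.76 (edgeR adjusted p = 0.000859), the bundling protein *Fscn1* at −6.43 with 5, 0 and 0 counts in Rptor fl/fl organoids (edgeR adjusted p = 0.00304) and *Pls3* at −1.22 (edgeR adjusted p = 0.00481). Of 10 enterocyte markers 4 were called higher, led by *Alpi* at 2.23 (edgeR adjusted p = 0.000976) and *Apoa1* at 2.38 (edgeR adjusted p = 0.00685). Their summed level was 9189 to 9720 CPM in Rptor fl/fl and 1383 to 4489 CPM in SCe organoids. Summed stem cell markers were 6221 to 6379 CPM and 2684 to 4644 CPM, Paneth markers 4508 to 5992 CPM and 2025 to 3174 CPM, goblet markers 2846 to 4496 CPM and 1077 to 1480.3 CPM, and stromal markers 5.71 to 9.78 CPM and 143 to 809 CPM, in the same order. Most stem cell markers went against their sum: of 7 tested, 2 log2 fold changes were positive and 5 negative, with a median of −0.58. Of these 7, 1 was called higher and 3 lower. The part of these cells in the footprint values was not tested.

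Translation efficiency, the ratio of footprints to mRNA, was compared in a model with an interaction term. *Espn* was the only one of the 9 genes past the threshold, where 1.12% of 10747 genes tested were called higher and 1.81% lower. Its mRNA log2 fold change between Rptor fl/fl and SCe organoids was −2.45 and its footprint log2 fold change −0.61, and the fitted difference was 1.89 (95% confidence interval 1.46 to 2.32, edgeR adjusted p = 0.00304). With same-numbered samples as a block the call was lost (edgeR adjusted p = 0.0586). The labels give the RNA-seq Rptor fl/fl organoids without the RPL22.HA allele that the Ribo-seq Rptor fl/fl organoids carry. The ratio therefore joins different organoids, and pulldown, genotype and medium cannot be told apart in it. *Rptor* itself was lower in the mRNA of the Rptor fl/fl lines, whereas its footprints did not pass the test between Rptor fl/fl and SCe organoids. Whether the *Espn* value reflects a change in translation was not tested. *Pls1* had a fitted difference of 0.44 (edgeR adjusted p = 0.314), *Cdhr5* −0.60 (edgeR adjusted p = 0.412) and *Ezr* −0.34 (edgeR adjusted p = 0.398). For *Myo1a* it was −0.01 with a wide interval (−1.34 to 1.32), and for *Vil1* −0.02 (−0.59 to 0.56). Of 30 other microvillus genes tested, 1 was called higher, *Cobl* at 0.98 (edgeR adjusted p = 0.0436), and 2 lower, *Msn* at −4.77 (edgeR adjusted p = 0.0247) and *Baiap2l2* at −1.08 (edgeR adjusted p = 0.0437). Of the enterocyte markers *Anpep* was called higher at 1.66 (edgeR adjusted p = 0.0493).

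**Figure D4:**
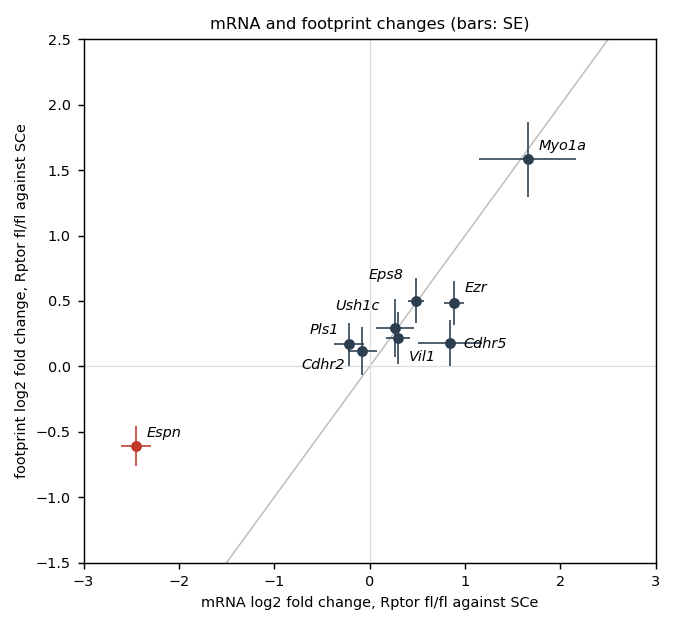
Log2 fold change of mRNA (x axis) and of footprints (y axis), Rptor fl/fl against SCe organoids, for the 9 genes, with bars of 1 SE and a grey line of equal change. *Espn* (red) is at −2.45 and −0.61, and *Myo1a* at 1.66 and 1.58 lies near the line.

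The footprints of *Espn* and its mRNA were assigned to different transcripts. In organoids the upstream-start transcripts, 42.5% or more of *Espn* mRNA reads, received 0 to 2.58 CPM of footprints. Espn-202 received 15.5, 28.8 and 18.5 CPM in Rptor fl/fl and 12.5, 18.9 and 20.0 CPM in SCe organoids, which overlapped. Transcripts from other inner starts, at most 2.73 CPM in mRNA, received 24.6, 10.4 and 23.3 CPM in Rptor fl/fl and 52.0, 42.8 and 45.5 CPM in SCe organoids, without overlap. With Espn-202 alone the footprint log2 fold change was 0.28 (edgeR adjusted p = 0.574) in place of −0.61, and the translation efficiency difference was 2.24 (edgeR adjusted p = 0.0223). Short footprints within shared coding sequence cannot be placed on a single transcript with certainty, so these shares describe the assignment. *Ezr*, *Myo1a* and *Cdhr2* have a single transcript each in the annotation used, so all of their reads fall on it in every assay. *Vil1*, *Pls1* and *Ush1c* kept the same transcript first in every assay. For *Cdhr5* and *Eps8* the transcript with most reads changed between mRNA and footprints. The *Cdhr5* transcript with 68.7% of mRNA reads received 24.71% of organoid footprints and 39.58% of mouse footprints. For *Eps8* a different transcript came first in mRNA, organoid footprints and mouse footprints.

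In the mice the tip adhesion protocadherins and *Pls1* rose with the Rptor fl/fl label, and the linkers did not pass the test. *Cdhr2* footprints were 1325, 1374 and 1353 CPM in WT and 1770.0, 1887 and 1990.0 CPM in Rptor fl/fl mice. *Cdhr5* was 749.8, 787 and 709 CPM in WT and 901, 1026 and 978 CPM in Rptor fl/fl mice. *Pls1* was 2299, 2304 and 2169 CPM in WT and 2779, 2987 and 3173 CPM in Rptor fl/fl mice. For each of the 3, and for *Ush1c* below, every Rptor fl/fl mouse lay above every WT mouse. The share of all genes whose groups lay apart was not counted in any comparison. *Cdhr2* rose by 0.48 on the log2 scale (95% confidence interval 0.33 to 0.62, edgeR adjusted p = 0.000200), *Pls1* by 0.40 (0.26 to 0.55, edgeR adjusted p = 0.000984) and *Cdhr5* by 0.37 (0.22 to 0.53, edgeR adjusted p = 0.00315). With only the transcript with most reads counted, the *Cdhr5* call was lost (edgeR adjusted p = 0.218). These were the 3 of 9 genes called, all higher, where 7.47% of 11515 genes tested were called higher and 5.97% lower. The count was 6 without Rptor fl/fl mouse 1, and the median of the 9 log2 fold changes was 0.20, beside −0.02 over all genes.

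*Ush1c*, the scaffold of the protocadherins, was 338, 359 and 356 CPM in WT and 369.9, 415 and 441 CPM in Rptor fl/fl mice, apart but short of the threshold (log2 fold change 0.22, edgeR adjusted p = 0.0865). *Myo1a* was 1973 to 2136 CPM in WT and 2066 to 2402 CPM in Rptor fl/fl mice, and *Ezr* was 1874 to 2066 CPM and 1623 to 2063 CPM. Both overlapped, with log2 fold changes of 0.14 (−0.01 to 0.30) and −0.08 (−0.26 to 0.09). *Espn* was 75.5, 81.3 and 65.8 CPM in WT and 77.7, 83.3 and 89.0 CPM in Rptor fl/fl mice (0.20, edgeR adjusted p = 0.241), so no fall was detected there, and 83.5 to 89.5% of its footprints were assigned to Espn-202. *Vil1* (4587 to 4913 against 4269 to 5429 CPM) and *Eps8* (346 to 392.2 against 364 to 398 CPM) overlapped.

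Other microvillus genes were also called in the mice, where 7.47% of all genes tested were called higher and 5.97% lower. Of 32 other microvillus genes tested, 7 were called higher and 1 lower, led by *Muc13*, a membrane mucin of the brush border, at 0.94 (edgeR adjusted p = 4.61e-07), *Baiap2l1* at 0.64 (edgeR adjusted p = 0.000127) and the myosin *Myo1d* at 0.40 (edgeR adjusted p = 0.000940). *Muc13* footprints were 1931, 2172 and 2374 CPM in WT and 4274, 4170.0 and 4031 CPM in Rptor fl/fl mice. Of 10 enterocyte markers 3 were called higher and 1 lower, including *Apoa4* at 0.48 (edgeR adjusted p = 0.000309) and *Sis*, the sucrase-isomaltase, at −0.39 (edgeR adjusted p = 0.00730). Summed enterocyte markers were 60074 to 61742 CPM in WT and 65183 to 69950 CPM in Rptor fl/fl mice, goblet markers 21356 to 21730 CPM and 24987 to 27957 CPM, and Paneth markers 7137 to 7809 CPM and 3741 to 5024 CPM. Smooth muscle (1262 to 1474 CPM), immune (3462 to 3837 CPM) and pancreatic acinar markers (1119 to 2838 CPM) were also present over both groups, and 5 of 6 stromal markers were called higher in Rptor fl/fl mice. Stem cell markers summed to 717 to 742 CPM in WT and to 713, 506 and 455 CPM in Rptor fl/fl mice. Of 6 stem cell markers tested, 2 were called lower and 0 higher. The part of all these cell types in the values of *Cdhr2*, *Cdhr5* and *Pls1* was not tested.

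**Figure D5:**
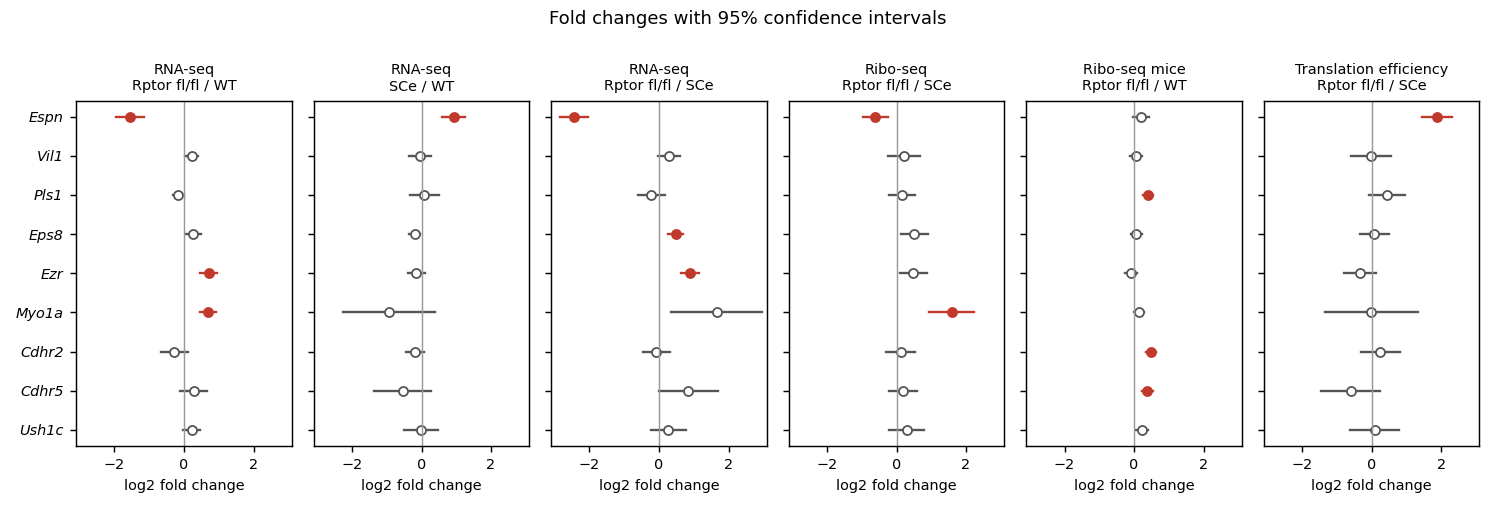
Log2 fold changes of the 9 genes with 95% confidence intervals in the 6 comparisons (Rptor fl/fl over WT, SCe over WT and Rptor fl/fl over SCe in RNA-seq, 2 in Ribo-seq, and translation efficiency). Filled red points passed an adjusted p of 0.05 in edgeR. *Espn* runs from −2.45 in mRNA to 1.89 in translation efficiency, and the mouse values lie between −0.08 and 0.48.

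The Ribo-seq tables of the organoids also list the 5′ region of transcripts as separate entries, left out above. Their share of a gene's footprints was largest for *Eps8*, *Pls1* and *Espn*. For *Eps8* it was 5.23, 6.14 and 2.93% in Rptor fl/fl and 11.05, 9.72 and 2.69% in SCe organoids, from 13 to 57 reads. For *Pls1* it was 3.02, 3.89 and 3.08% in Rptor fl/fl and 8.70, 4.05 and 2.87% in SCe organoids. *Espn* had 28, 12 and 17 such reads in Rptor fl/fl and 6, 2 and 0 in SCe organoids. The groups overlapped for *Eps8* and *Pls1*, and the counts of *Espn* are too few to compare. *Ush1c* had none, and *Myo1a* had 0 to 8 reads.

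Across the 7 RNA-seq samples the 9 genes did not vary as a unit. The correlation of log2 CPM with the mean of the other 8 genes was 0.93 for *Ush1c*, 0.90 for *Cdhr5*, 0.85 for *Vil1* and 0.64 for *Myo1a*. It was 0.33 to 0.43 for *Pls1*, *Ezr*, *Cdhr2* and *Eps8*, and −0.81 for *Espn*. The mean of the 9, each centred on its own average, was lowest in the SCe sample numbered 1 at −0.42 and highest in Rptor fl/fl line 2 at 0.18. Of 9564 other genes at 10 CPM or more, the ones most like that mean were *Ces2e* (Pearson r = 0.99), *Olfr46* and *Slc2a2* (0.98), *Clic5* (0.98) and *Ndufb10* (0.98). These values describe 7 samples from 3 groups.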

How the data were processed

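Reads were quantified by the authors with Salmon 1.1.0 (mm10, GENCODE vM21), and Ribo-seq adapters were removed with cutadapt 1.18. The study's methods name whole protein-coding transcripts for RNA-seq and a set trimmed of UTRs for Ribo-seq. The deposited tables give estimated counts, transcript lengths and effective lengths for 23 libraries. Transcript counts were summed by gene, the separately listed 5′ entries were left out, and the 2 libraries of each RNA-seq line were added. Rounded counts were tested over the whole table with the quasi-likelihood test of edgeR 4.0.16 in R 4.3.3 (filterByExpr, TMM, Benjamini-Hochberg adjusted p under 0.05), and DESeq2 1.42.0 was an alternative. CPM used TMM library sizes. Levels between genes were divided by length, by the full length for footprints, since the effective length subtracts 249 bases. In the mouse tables the length of each of 39219 transcripts equalled its coding plus 5′ entry in the organoid tables less 26 bases. By these lengths the mouse counts can include footprints on 5′ regions, which have no separate entries there. Mouse and organoid levels were therefore not tested against each other. A further deposited table holds the authors' own comparison of translation efficiency and was not used.

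The 9 genes, the other lists and the tests were chosen with earlier results of these data known. Named besides the 9 were, per comparison, the 3 called genes with the smallest adjusted p among other microvillus genes and 2 among enterocyte markers, *Rptor*, and the 5 genes most like the mean of the 9. Counting Espn-202 alone, and leaving out SCe number 1 in both assays, were added after seeing the data. The scripts were tested on simulated data. *Vil1*, *Ezr* and *Ush1c* overlap genes on the opposite strand and *Eps8* a gene on its own strand. Nothing beyond the line and mouse numbers says that samples were separate cultures, so p-values measure the spread between these samples.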

Additional observations from a re-analysis of the deposited data

Results flagged for a closer look

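*Espn* differed between assays in the comparison of samples labelled Rptor fl/fl with SCe organoids. Its log2 fold change between Rptor fl/fl and SCe organoids was −2.45 in mRNA and −0.61 in footprints, and the interaction term gave a difference of 1.89 (edgeR adjusted p = 0.00304). With same-numbered samples as a block the call was lost (edgeR adjusted p = 0.0586). The Rptor fl/fl organoids of the 2 assays also differ in their genotype labels. Footprints were lower in all 3 Rptor fl/fl samples than in any SCe sample, as was mRNA in both Rptor fl/fl lines. With Espn-202 alone the difference was 2.24 (edgeR adjusted p = 0.0223).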

How the results depend on the processing

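With 2 lines or 3 samples per group, a single library decides several counts. Leaving out each replicate gave 1 to 5 of the 9 genes called in Rptor fl/fl against WT organoids, 0 to 5 in SCe against WT, 2 to 6 in Rptor fl/fl against SCe mRNA, 1 to 4 in footprints, 3 to 6 in mice and 1 in translation efficiency. The medians of the 9 log2 fold changes then ranged from 0.11 to 0.25, −0.18 to −0.09, 0.20 to 0.39, 0.091 to 0.40, 0.11 to 0.26 and −0.13 to 0.26. With technical libraries kept separate the 3 RNA-seq counts were 8, 2 and 6, but this fit treats the 2 libraries of a line as replicates. The share of all genes called in each alternative fit is not given here, so these counts cannot be set against it. DESeq2 called 2 in SCe against WT, 5 in Rptor fl/fl against SCe mRNA and 4 in footprints. The footprint count was 1 with no count filter, with an effective length offset and with the transcript with most reads. The median in Rptor fl/fl against WT was 0.27 when scaling left out the 10 genes with most counts and 0.28 with the transcript with most reads. Without SCe number 1 in both assays, 2 genes were called in translation efficiency.

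Same-numbered samples correlated at −0.04 to 0.30, so the numbers were not treated as pairing. With the replicate block the footprint count was 1 and the translation efficiency count 0, with *Espn* at 1.95 there (edgeR adjusted p = 0.0586) and at edgeR adjusted p = 0.0963 in footprints. *Eps8* against SCe mRNA had an edgeR adjusted p of 0.0561 with the block.

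Direction turned for *Espn* footprints, to 0.30 with the transcript with most reads and 0.28 with Espn-202 alone, and otherwise for values that were not called. In SCe against WT, scaling without the top 10 genes gave *Vil1* 0.078 and *Ush1c* 0.10, and *Ush1c* was 0.052 with the transcript with most reads and 0.0069 with technical libraries separate. The same scaling gave *Vil1* −0.0082 in mice and 0.010 in translation efficiency, where *Vil1* was 0.23 with the effective length offset and 0.0068 with 5′ entries added, and *Myo1a* 0.0043 with the latter. Without SCe number 1 in both assays *Eps8* was −0.030 and *Myo1a* 0.078. Leaving out replicates, *Vil1* ranged from −0.12 to 0.048, *Ush1c* from −0.14 to 0.14 and *Pls1* from −0.0031 to 0.21 in SCe against WT, *Cdhr2* from −0.29 to 0.12 in Rptor fl/fl against SCe mRNA, *Ezr* from −0.16 to 0.014 and *Vil1* from −0.014 to 0.16 in mice, and in translation efficiency *Ush1c* from −0.13 to 0.26, *Vil1* from −0.14 to 0.18, *Eps8* from −0.048 to 0.16 and *Myo1a* from −0.35 to 0.38. The cause was not tested.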
